A study of Mus musculus with 6 samples.

Results

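The C/EBP (CCAAT/enhancer-binding protein) transcription factors were followed in mouse hearts after myocardial infarction, through the genes Cebpa, Cebpb, Cebpd and Cebpg and the related gene Ddit3, which encodes CHOP. The 5 genes were taken by name: their rows are those of 52550 in the deposited expression table whose Ensembl identifiers map to these symbols. All 5 passed the filter on low values and belong to the 14656 genes tested. The family was chosen by name with KO and WT levels of these same hearts already known, so the difference between the genotypes is described for them without a p-value. The samples were hearts of 6 C57BL/6 mice, 3 wild type (WT) and 3 of the genotype lncRNA-DRR-/- (KO), named for a long noncoding RNA; the labels do not say how the allele was made or in which cells it acts. In all 6 mice the left anterior descending coronary artery had been tied off for good at an age of 8 weeks, and the mice were 10 weeks old at sampling. No heart without an infarct was analysed here, so every value describes the healing infarcted heart.

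C/EBP proteins belong to the basic leucine zipper (bZIP) class: a basic stretch grips DNA and the zipper next to it joins a pair of proteins into a dimer. C/EBPα, C/EBPβ and C/EBPδ are known as activators in adipocytes, liver and myeloid cells, and C/EBPβ and C/EBPδ are induced in many tissues by interleukin-6 type cytokines, bacterial products and glucocorticoids. C/EBPγ lacks an activation domain of its own and works as a partner of other bZIP proteins, while CHOP is induced by the integrated stress response through ATF4 and carries a changed basic stretch that keeps many of its dimers off the usual C/EBP site.

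Because reads from sequence that relatives share could be assigned to the wrong member, the GENCODE M21 transcripts (GRCm38) of the 5 genes were compared. The longest run of identical bases was 29 bases, between Cebpa and Cebpb, and 27 bases between Cebpb and Cebpd. For the other pairs of members it was 14 bases or fewer. The read length is not given in the sources used here.

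Expression was given as FPKM (fragments per kilobase of transcript and per sequenced library), with no counts. From the smallest steps in the values the libraries held roughly 5190000 to 9400000 fragments. The cardiomyocyte genes Myh6, Tnnt2, Tnni3, Actc1, Myl2 and Pln summed to between 6516 and 10523 FPKM in each library. KO replicate 3 stood apart by its sex-linked genes, with Xist, the RNA of the inactive X chromosome, at 25.6 FPKM against 0.0742 or less in the other 5 libraries. WT replicate 3 stood apart by liver transcripts: Alb, which encodes serum albumin, stood at 37.3 FPKM there and between 0.456 and 1.27 FPKM elsewhere. Ddx3y, a gene of the Y chromosome, stood at 0.0280 FPKM in KO replicate 3 and at 13.0 to 16.2 FPKM in the others. The labels give no time of day and no litter, and do not say whether replicates came from separate sessions, so the p-values below measure the spread between these samples.

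Cebpd, which encodes C/EBPδ (chr16:15887286-15891031, plus strand, GRCm38), was the member with the highest level and the member that differed most between the genotypes. Its levels were 11.3, 9.23 and 10.3 FPKM in WT replicates 1 to 3 and 34.7, 37.7 and 27.7 FPKM in KO replicates 1 to 3. All 3 KO hearts lay above all 3 WT hearts, and the lowest KO value was 2.44 times the highest WT value. The means were 10.3 ± 1.0 FPKM in the WT and 33.4 ± 5.2 FPKM in the KO group (SD, n = 3 each), a ratio of 3.24. On the scale of log2(FPKM / scaling factor + 0.5), used for every log2 difference here, KO minus WT was 1.66 ± 0.14 (SE), the 29th largest positive difference among all tested genes. Taken at the length of its longest GENCODE M21 transcript, 3746 bases, Cebpd rested on about 200 to 1154 fragments per library. By this reckoning that was the most of any member, but the length behind the FPKM is not given.

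Cebpd was the 1 of the 5 members past the threshold in the fit over all genes (limma, Benjamini-Hochberg adjusted p under 0.05), a threshold that 0.375% of all tested genes passed (55 of 14656), 0.273% as higher in KO. It was also the 1 of 5 whose genotypes did not overlap; over all tested genes 5.29% had every KO heart above every WT heart, 7.5% had every KO heart below, and 12.8% had either. Because the genes were chosen with this contrast in view, nothing is read from these counts. Cebpd was past it in all 16 alternatives described in the closing section, with a log2 difference between 1.59 and 1.77. Without KO replicate 3 the difference was 1.77 ± 0.13, and without WT replicate 3 it was 1.70 ± 0.16.

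**Figure D1:**
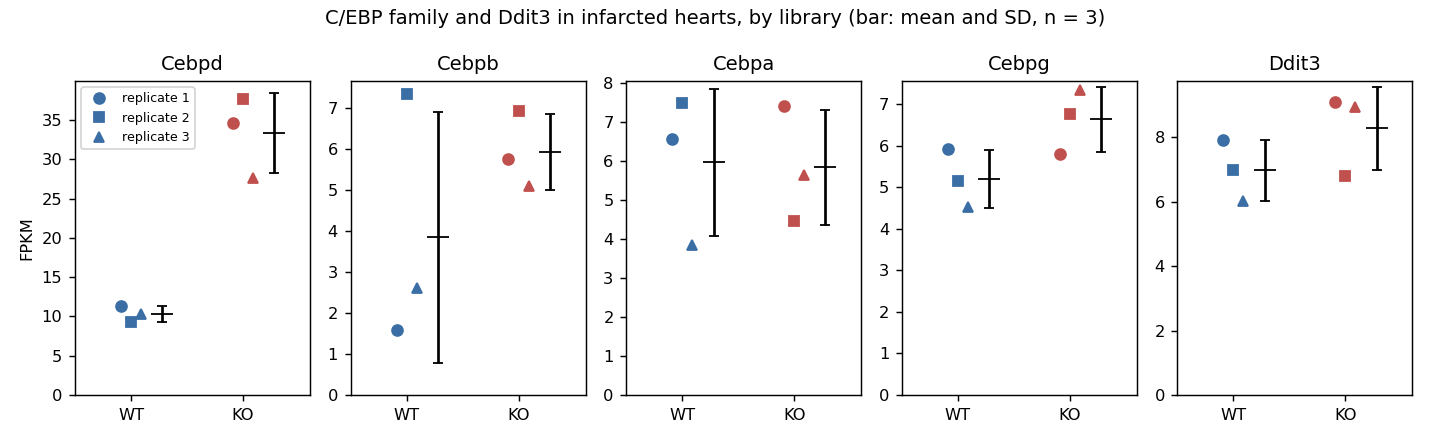
Levels of the 5 genes in each heart (FPKM, linear axes from 0), WT in blue and KO in red, with the marker shape giving the replicate number and the black bar the mean and SD of 3 hearts. The KO hearts lie between 27.7 and 37.7 FPKM for Cebpd and above all WT hearts, while for the other 4 genes the groups overlap.

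The rise of Cebpd came with differences in circadian clock genes and in genes that glucocorticoids induce, whose part in the result was not tested. Dbp, Arntl and Tsc22d3 were named because their large differences in these libraries were already known. Both lists were also chosen with earlier results of these data known, so the p-values and counts here are descriptions and no independent support. Dbp, a D-box factor gene under clock control, ranged over 1.70 to 2.29 FPKM in the WT group and over 28.6 to 40.5 FPKM in the KO group (log2 difference 3.86 ± 0.16, limma adjusted p = 0.00041). Arntl, the gene of the core clock factor BMAL1, was lower in KO hearts, with means of 7.90 ± 1.72 FPKM in WT and 0.683 ± 0.280 FPKM in KO (SD, n = 3 each; difference of -2.83 ± 0.19, limma adjusted p = 0.0027). Nr1d2, which encodes the clock repressor REV-ERBβ, rose by a log2 difference of 2.16 ± 0.13 (limma adjusted p = 0.0027). The list of clock genes holds 14 genes, all tested. Limma called 7 of the 14 as higher and 2 as lower in KO, against 0.273% and 0.102% of all tested genes. The median log2 difference of this list was 1.59, and 7 to 9 of its genes were called with 1 library left out. Genotype and the hour of harvest cannot be told apart here. Tsc22d3, whose product GILZ is a classic glucocorticoid response protein, was higher in KO hearts, at 67.5 ± 13.5 FPKM against 13.1 ± 1.1 FPKM (a difference of 2.31 ± 0.16, limma adjusted p = 0.0027). A list of 13 glucocorticoid genes, all tested, also holds the receptor gene Nr3c1 and shares Per1 with the clock genes. Of these 13, limma called 7 as higher and 0 as lower in KO, against 0.273% and 0.102% of all tested genes. Their median log2 difference was 1.29 against -0.004 over all tested genes. Of the list 2 genes had negative differences, Nr3c1 and Zbtb16, a zinc finger gene whose KO hearts all lay below its WT hearts (-0.72 ± 0.22, limma adjusted p = 0.373). The count of 7 called was 1 without KO replicate 1, 2 without WT replicate 2 or WT replicate 3, 3 without WT replicate 1 or KO replicate 2, and 6 without KO replicate 3. The call of Mt2, a metallothionein gene that led that list beside Tsc22d3 and Per1 (log2 difference 1.77 ± 0.18, limma adjusted p = 0.015), ended when WT replicate 2 (limma adjusted p = 0.077), WT replicate 3 (0.057) or KO replicate 1 (0.090) was left out and with no filter on low values (0.058), and that of Per1 (limma adjusted p = 0.0089) ended without KO replicate 1 (limma adjusted p = 0.055). Nr3c1, the gene of the glucocorticoid receptor itself, had means of 15.9 ± 2.4 FPKM in the WT and 14.7 ± 0.9 FPKM in the KO group (SD, n = 3 each), with overlapping groups.

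Over the 6 libraries the genes whose log2 levels followed Cebpd most closely were Klf6, Dbp and S1pr1, with Pearson r of 0.997, 0.996 and 0.995 (n = 6 hearts of 2 genotypes, so a large share of each r is the difference between the genotypes). After genotype means were removed, r was 0.88 for Klf6, 0.89 for Dbp and 0.79 for S1pr1. Klf6, a Krüppel-like zinc finger gene, stood at 25.4 to 31.2 FPKM in the WT and 49.5 to 57.5 FPKM in the KO group. S1pr1, a receptor gene for sphingosine-1-phosphate, stood at 36.6 to 38.1 and 68.2 to 86.1 FPKM. Of 11640 genes compared, 88 reached an r of at least 0.95 with Cebpd, so these 3 are the top of a longer list. In FPKM without scaling, Cebpd was highest in KO replicate 2 and lowest in KO replicate 3. That order of KO hearts was found in 8 of the 13 glucocorticoid-induced genes, in 3 of 14 clock genes and in 27.2% of all tested genes. It depended on the scaling: in scaled log2 levels Cebpd lay 1.783 above its WT mean in KO replicate 1 and 1.751 in KO replicate 2. Sgk1 and Dusp1 were also highest in KO replicate 1 on that scale, while Tsc22d3 and Per1 stayed highest in KO replicate 2. The counts were not taken on scaled levels, so no likeness between Cebpd and the glucocorticoid list is read from them.

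**Figure D2:**
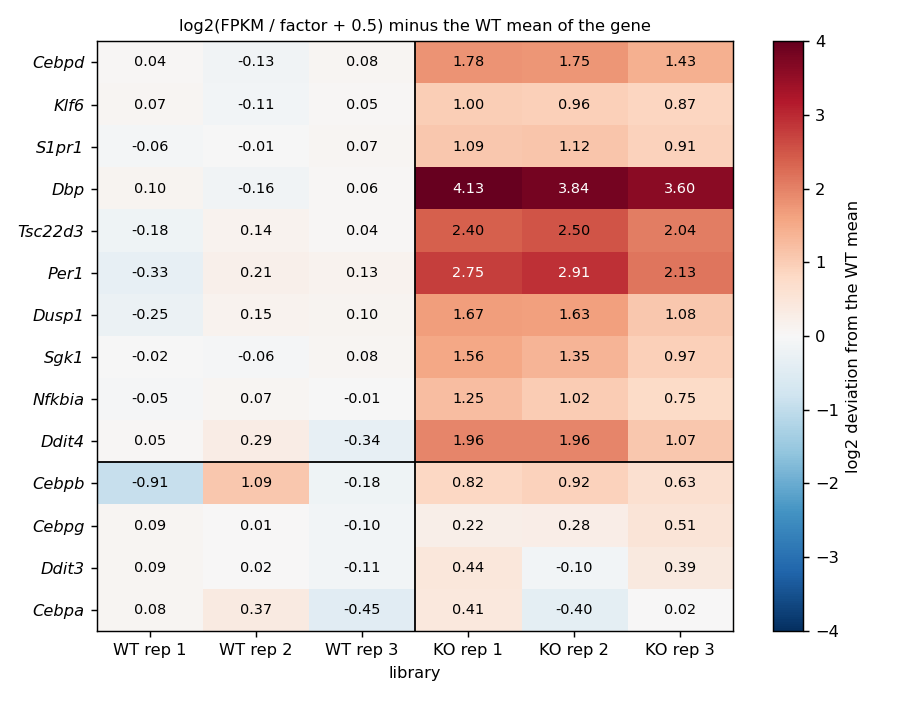
Each cell gives log2(FPKM / scaling factor + 0.5) of a gene in a heart minus its mean in the 3 WT hearts, for Cebpd and 9 other genes shown with it (above the line) and for the other 4 members (below it). Cebpd lies 1.43 to 1.78 above its WT mean in the KO hearts, lowest in KO replicate 3, which is also the lowest KO heart for the 9 genes under it, though not for every gene of their lists. Cebpb spreads from -0.91 to 1.09 among WT hearts alone.

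The genes around Cebpd were not called. Spidr, a DNA repair gene on the opposite strand, overlaps 562 of the 3746 annotated Cebpd exon bases and stood at 1.82 to 2.96 FPKM, with a log2 difference of -0.19 ± 0.17 (limma adjusted p = 0.83). Prkdc and Mzt2 to the left, within 45.1 kb, differed by -0.15 ± 0.17 and -0.19 ± 0.21 (limma adjusted p = 0.87 and 0.86). Pkp2, the plakophilin gene of the cardiac desmosome 322 kb to the right, differed by -0.17 ± 0.14 (limma adjusted p = 0.82). Over all members, 20 genes that overlap them or are their nearest tested neighbours had log2 differences from -0.48 to 0.43. Limma called 0 of the 20, against 0.375% of all tested genes. At an unadjusted limma p under 0.05 there was 1 among them, against 8.48% of all tested genes. These counts are near the shares over all genes, so nothing is read from them.

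Cebpb, which encodes C/EBPβ (chr2:167688915-167690418, plus strand), varied among WT hearts more than between the genotypes. It stood at 1.58, 7.34 and 2.62 FPKM in WT replicates 1 to 3 and at 5.76, 6.92 and 5.11 FPKM in KO replicates 1 to 3. The WT heart of replicate 2 lay above every KO heart and the other 2 WT hearts lay below every KO heart, so the groups overlapped. The highest WT value was 4.65 times the lowest, against 1.36 times among KO hearts. The means were 3.84 ± 3.07 and 5.93 ± 0.92 FPKM (SD, n = 3 each), with a log2 difference of 0.79 ± 0.45. That difference was 0.34 without WT replicate 1 and 1.34 without WT replicate 2. The spread of Cebpb within genotypes, an SD of 0.72 on the log2 scale, was exceeded by 3.51% of all tested genes. These values rested on few fragments, about 20 to 88 per library, with a counting error of up to about 22.1%.

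The row of Cebpb is open to mixing with a neighbour, since Tmem189 on the opposite strand overlaps 20.7% of its exon bases and the sources used here do not say whether reads were counted by strand. Tmem189 stood at 11.2, 7.21 and 10.8 FPKM in the WT and at 13.8, 8.08 and 11.1 FPKM in the KO group, lowest in WT replicate 2 and KO replicate 2, where Cebpb was highest within its genotype. Whether the assignment of reads moved Cebpb was not tested. The genes that followed Cebpb most closely were Mafk, Pop4 and Snx17 (Pearson r of 0.989, 0.986 and 0.985 over the 6 hearts, and 0.985, 0.981 and 0.989 with genotype means removed). Of these, Mafk, a small Maf gene of the bZIP class, moved within a narrow band of 11.9 to 14.8 FPKM.

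Cebpa, which encodes C/EBPα (chr7:35119293-35121928, plus strand), had the same mean in both genotypes within its spread. It stood at 6.56, 7.48 and 3.85 FPKM in the WT and at 7.41, 4.47 and 5.64 FPKM in the KO group, in means 5.96 ± 1.89 and 5.84 ± 1.48 FPKM (SD, n = 3 each). The log2 difference was 0.007 ± 0.268, and between -0.22 and 0.21 with 1 library left out. C/EBPα is a factor of adipocytes, and the 5 adipocyte markers Adipoq, Plin1, Cfd, Cidec and Lep summed to 9.93, 31.2 and 0.346 FPKM in WT and to 6.83, 4.98 and 8.04 FPKM in KO hearts. Of these 5, Lep was listed at 0 in 4 libraries, and Plin1 and Cidec were listed at 0 in WT replicate 3. Within WT hearts Cebpa and the marker sum had the same order, and WT replicate 3 was the lowest of the 6 in both. Within KO hearts the order differed, with Cebpa highest in KO replicate 1 and the marker sum highest in KO replicate 3. Maf1, Mrgpre and Fbxl4 followed Cebpa most closely (Pearson r of 0.997, 0.980 and 0.980 over the 6 hearts). The part of fat cells in the spread of Cebpa was not tested, and in whole-heart RNA fewer cells of a type and less RNA per cell cannot be told apart. WT replicate 3, the library with liver transcripts, also had the lowest Cebpa value of the series, and their part in that value was not tested.

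**Figure D3:**
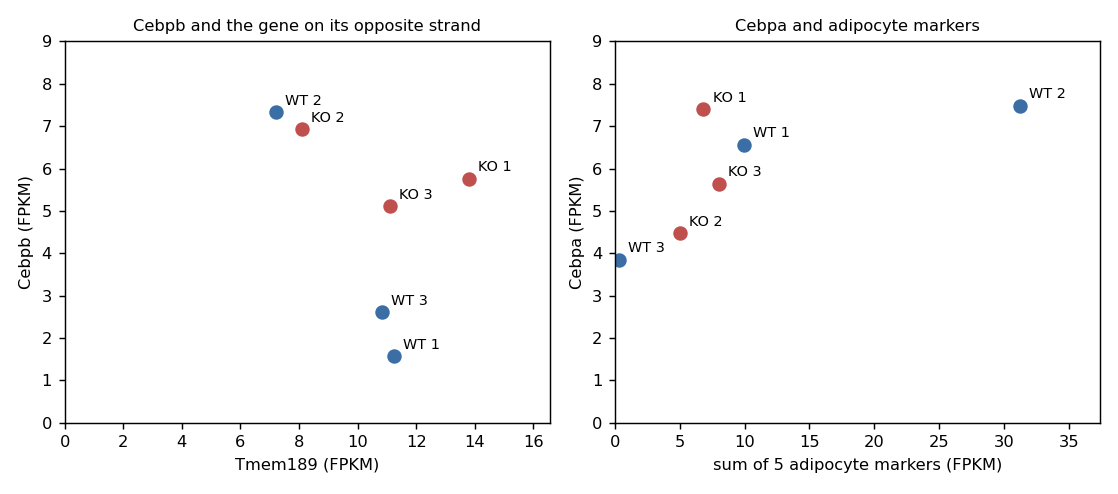
On the left each heart's Cebpb level is set against Tmem189, the gene that overlaps it on the opposite strand, and on the right Cebpa against the summed FPKM of 5 adipocyte markers (all axes in FPKM, WT blue, KO red). WT replicate 2, at 7.34 FPKM of Cebpb and 7.21 of Tmem189, has the lowest Tmem189 and the highest Cebpb value, and WT replicate 3 has the lowest marker sum and the lowest Cebpa level.

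Cebpg, which encodes the partner protein C/EBPγ (chr7:35046422-35056573, minus strand), varied little. It stood at 5.93, 5.16 and 4.53 FPKM in the WT and at 5.80, 6.76 and 7.35 FPKM in the KO group, where KO replicate 1 lay just below WT replicate 1 and the other 2 KO hearts lay above all WT hearts. The means were 5.21 ± 0.70 and 6.64 ± 0.78 FPKM (SD, n = 3 each), with a log2 difference of 0.34 ± 0.13. It was between 0.25 and 0.40 with 1 library left out, and lowest without KO replicate 3. Cebpg lies 62.7 kb from Cebpa on the same chromosome in the opposite orientation. Across the 6 hearts their log2 levels were nearly unrelated (Pearson r of 0.09, and 0.16 with genotype means removed). Chaf1a, Tubb5 and Impdh1 followed Cebpg most closely (Pearson r of 0.989, 0.983 and 0.983).

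Ddit3, which encodes CHOP (chr10:127290774-127296288, plus strand), also overlapped between the genotypes. It stood at 7.93, 7.00 and 6.03 FPKM in the WT and at 9.10, 6.79 and 8.95 FPKM in the KO group, so KO replicate 2 lay among the WT hearts and the other 2 KO hearts above them. The means were 6.98 ± 0.95 and 8.28 ± 1.29 FPKM (SD, n = 3 each) and the log2 difference was 0.24 ± 0.17, from 0.14 without KO replicate 1 to 0.41 without KO replicate 2. Its short transcript gave about 30 to 72 fragments per library. GENCODE M21 lists another coding gene of the same symbol over 6.13% of these exon bases on the same strand, which was not used here. Sin3b, Fn3krp and Ccdc69 followed Ddit3 most closely (Pearson r of 0.998, 0.995 and 0.995), and of the other members Cebpa was nearest (r of 0.66, and 0.79 with genotype means removed).

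Cebpd held a larger share of the family's summed level in every KO heart than in any WT heart. The 5 genes summed to 33.3, 36.2 and 27.3 FPKM in WT and to 62.8, 62.7 and 54.7 FPKM in KO hearts, and Cebpd held 34.0%, 25.5% and 37.7% of the sum in WT and 55.3%, 60.2% and 50.6% in KO hearts. Among WT hearts, where Cebpd itself ranged over 9.23 to 11.3 FPKM, the share of Cebpb ran from 4.74% to 20.3%. Without Cebpd the sums were 17.0 to 27.0 FPKM in the WT and 24.9 to 28.1 FPKM in the KO group, which overlapped. The ratio of Cebpd to Cebpa was 1.23 to 2.68 in WT and 4.68 to 8.44 in KO hearts. The ratio of Cebpd to Cebpb was 1.26 to 7.18 in WT and 5.42 to 6.02 in KO hearts, so for this pair the wide WT range held the KO values.

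In the order of mean level over the 6 hearts, Cebpd came first at 21.8 FPKM, followed by Ddit3 at 7.63, Cebpg at 5.92, Cebpa at 5.90 and Cebpb at 4.89 FPKM. FPKM is per length, but the lengths used are not given and the Cebpb row is open to mixing with Tmem189. Distances between genes are therefore approximate. Cebpd lay above Ddit3 in 6 of 6 hearts (mean log2 distance 1.24 over all hearts, 0.53 in WT and 1.95 in KO hearts) and Ddit3 above Cebpg in 6 of 6 hearts (0.34), each with p = 0.031 by an exact sign-flip permutation test over hearts, two-sided, the smallest that 6 hearts allow, and 0.0625 after Benjamini-Hochberg adjustment over the 4 neighbour pairs. The pairs tested were set by the order of means in these same hearts, and the family was chosen with the KO levels known. No conclusion is therefore drawn from these p-values. In WT hearts alone Cebpd lay above Ddit3 in 3 of 3 hearts (exact permutation p = 0.25, the smallest that 3 hearts allow). Cebpg and Cebpa did not differ beyond their spread (Cebpg higher in 3 of 6 hearts, exact permutation adjusted p = 0.875), nor did Cebpa and Cebpb (Cebpa higher in 5 of 6 hearts, exact permutation adjusted p = 0.458). Among WT hearts alone Cebpa stood above Cebpg, and among KO hearts alone Cebpb stood above Cebpa, so only the place of Cebpd and that of Ddit3 were the same in both genotypes.

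Upstream sequence is shown for the 2 members for which the search found more than the general promoter elements of a TATA or CCAAT box, the 250 bases before the RefSeq start site (GRCm38.p6). RefSeq promoters matched 4 of the 5 members, all but Cebpd. Capitals mark TGACG, the core of a cAMP response element, in Cebpb, and TGANTCA, the AP-1 site, and CCAAT in Ddit3, on either strand.
Cebpb, chr2:167688665-167688914, plus strand: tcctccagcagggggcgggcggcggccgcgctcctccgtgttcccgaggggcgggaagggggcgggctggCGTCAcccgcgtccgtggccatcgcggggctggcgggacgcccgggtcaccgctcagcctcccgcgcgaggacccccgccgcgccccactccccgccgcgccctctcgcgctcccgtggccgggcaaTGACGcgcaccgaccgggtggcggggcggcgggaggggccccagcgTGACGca
Ddit3, chr10:127290543-127290792, plus strand: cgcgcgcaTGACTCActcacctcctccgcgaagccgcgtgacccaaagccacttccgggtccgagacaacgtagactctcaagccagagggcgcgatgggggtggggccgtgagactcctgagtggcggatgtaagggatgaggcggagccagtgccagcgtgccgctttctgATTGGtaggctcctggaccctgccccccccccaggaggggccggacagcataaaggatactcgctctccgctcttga
TGACG occurred 3 times before Cebpb, and 17.8% of 32851 promoters of this length held it at least 1 time. TGANTCA occurred in 6.75% and CCAAT in 33.9% of these promoters. The windows of the 4 members held from 64.8% (Ddit3) to 81.6% (Cebpb) G or C, against a median of 52.4% over all promoters. The shares given here were not matched for base composition. Cebpg held CCAAT at 2 places and Cebpa held TATAAA, a motif in 12.4% of promoters. The C/EBP palindrome TTGCGCAA (0.164% of promoters), the clock's E-box CACGTG (6.02%), the D-box TTATGTAA (0.819%) and the C/EBP-ATF composite TGATGNAAT (0.816%) were not among the letters of these 4 windows, nor were TTGCNNAA (9.56%), TTCNNNGAA of STAT factors (7.02%), AGAACA (16.1%), TGACGTCA (1.55%), the full palindromic glucocorticoid element (0.00913%) or the endoplasmic reticulum stress element (0.113%). TTGCNNAA contains the palindrome, TGACGTCA contains TGACG, and AGAACA is part of the glucocorticoid element.

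Beyond the members, the genes that feed into C/EBP factors or are known to answer to them were looked at as 11 lists with 112 different tested genes. Of these 112 genes, limma called 0 at the adjusted threshold, while 25 had an unadjusted p under 0.05, 22.3% against 8.48% of all tested genes. The lists were chosen with earlier results of these data known, so nothing is read from this share. Beside the sign counts and medians of the lists below, 49.3% of all tested genes had a positive log2 difference, with a median of -0.004. The other genes named for the CCAAT box stood close together: Cebpz at 8.35 ± 0.32 and 7.55 ± 0.36 FPKM (log2 difference -0.13 ± 0.13, limma adjusted p = 0.85), and the NF-Y subunit genes Nfya, Nfyb and Nfyc at log2 differences of 0.14, 0.06 and 0.10 (limma adjusted p = 0.85, 0.96 and 0.93). With 1 library left out Cebpz ranged from -0.20 to -0.05 and Nfya from 0.05 to 0.24, while Nfyb and Nfyc changed sign. Cebpe, the C/EBP gene of maturing granulocytes, did not pass the filter: it was listed at 0.172, 0 and 0.311 FPKM in WT hearts and at 0 in all 3 KO hearts.

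Among 9 tested bZIP partners of the family 6 had positive log2 differences, with a median of 0.26. Nfil3, a repressor of the clock's output genes, stood at 5.07 to 7.78 FPKM in the WT and at 2.52 to 3.49 FPKM in the KO group (log2 difference -0.98 ± 0.16, limma adjusted p = 0.076). Jun, a subunit of AP-1, stood at 24.8 to 30.0 FPKM in the WT and 35.7 to 45.4 FPKM in the KO group (0.55 ± 0.11, limma adjusted p = 0.145), and its partner Fos differed by 0.92 ± 0.23 (limma adjusted p = 0.237). These 3 genes, named for the smallest p of their list, did not overlap between the genotypes. Of the 9 partners 3 had every KO heart above every WT heart and 1 had every KO heart below. Over all tested genes these shares were 5.29% and 7.5%, and nothing is read from the counts. Of 3 genes whose products take part in the breakdown of C/EBP proteins, Trib1 stood at 3.97 ± 0.47 and 6.45 ± 1.15 FPKM (0.64 ± 0.15, limma adjusted p = 0.211), while Trib2 and Cop1 differed by -0.0002 ± 0.1078 and 0.03 ± 0.12 (limma adjusted p above 0.97 for both).

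Cytokine genes that induce Cebpb and Cebpd in other settings were low in these hearts. Of 16 genes of interleukin-6 type signalling 12 were tested, 3 with positive and 9 with negative log2 differences (median -0.05). Il6, Il11, Lif and Osm did not pass the filter, and Il6 stood at 0.306 FPKM or less in WT and at 0.633 FPKM or less in KO hearts, with overlapping groups. Tyk2, a Janus kinase gene, Pias3, an inhibitor of STAT3, and Il6st, the shared receptor subunit gp130, had the smallest p of this list, with log2 differences of -0.32 ± 0.16, 0.28 ± 0.15 and -0.18 ± 0.13 (limma adjusted p = 0.66, 0.70 and 0.79). Tyk2 was at -0.20 without KO replicate 3, and Il6st ranged from -0.28 without KO replicate 2 to -0.11 without KO replicate 3. Of 13 tested genes of interleukin-1, tumour necrosis factor and Toll-like receptor signalling 8 had negative differences (median -0.14). Nfkbia, which encodes the inhibitor IκBα, was apart from the rest of this list, at 23.8 to 26.5 FPKM in the WT and 41.9 to 58.2 FPKM in the KO group (1.01 ± 0.15, limma adjusted p = 0.0501), just short of the threshold. It was under the threshold with upper quartile scaling, a robust fit, a filter at an FPKM of 1 or without KO replicate 3 (limma adjusted p = 0.040 to 0.048). Il1b and Tnfrsf1b differed by -0.49 ± 0.31 and -0.29 ± 0.23 (limma adjusted p = 0.75 and 0.81). Il1b was at -0.23 without KO replicate 1, -0.30 without WT replicate 1 and -0.78 without KO replicate 3. Tnfrsf1b was at -0.11 without KO replicate 3, -0.13 without WT replicate 1 and -0.46 without KO replicate 2 or WT replicate 3.

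Known targets of C/EBP factors lay on both sides of 0. Of 13 tested acute phase and inflammatory targets 6 had positive and 7 negative log2 differences (median -0.16). Lcn2, the neutrophil and epithelial siderophore-binding lipocalin, stood at 1.72 to 2.78 FPKM in the WT and 0.871 to 1.19 FPKM in the KO group (-0.82 ± 0.18, limma adjusted p = 0.186). Lbp, the lipopolysaccharide-binding protein gene, stood at 3.28 to 5.21 and 5.95 to 8.36 FPKM (0.62 ± 0.16, limma adjusted p = 0.275). Tnfaip6, a hyaluronan-binding protein gene, stood at 1.23 to 2.14 and 2.20 to 4.08 FPKM (0.80 ± 0.22, limma adjusted p = 0.296). For these 3 genes, named for the smallest p of their list, the genotypes did not overlap. Of the 13 targets 2 had every KO heart above every WT heart and 1 had every KO heart below. Over all tested genes these shares were 5.29% and 7.5%, and nothing is read from the counts.

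Adipocyte and myeloid targets lay mostly on the negative side. Of 8 tested adipocyte targets 6 had negative differences (median -0.09). Fabp4, a fatty acid carrier gene that cardiac endothelium expresses too, stood at 122 ± 9.4 and 188 ± 30.4 FPKM (0.62 ± 0.19, limma adjusted p = 0.372). Scd1 and Lpl, enzymes of fat synthesis and uptake, differed by -0.46 ± 0.25 and -0.11 ± 0.24 (limma adjusted p = 0.70 and 0.94). Scd1 was at -0.20 without WT replicate 2, and Lpl changed sign, to 0.11, without KO replicate 2. All 6 tested myeloid targets had negative differences (median -0.33), led by Ngp, a granule protein gene of neutrophils, at 5.85 to 7.33 FPKM in the WT and at 1.62, 0.701 and 5.41 FPKM in the KO group (-1.49 ± 0.53, limma adjusted p = 0.466). Ltf and Lyz2, which encode lactoferrin and lysozyme, differed by -0.81 ± 0.40 and -0.31 ± 0.23 (limma adjusted p = 0.66 and 0.80). With 1 library left out, Lyz2 was at -0.07 without WT replicate 1 and at -0.48 without WT replicate 3. Ltf was at -0.49 without KO replicate 2 and at -1.26 without KO replicate 3, and at -1.31 with all libraries and a pseudocount of 0.1. Ngp was at -0.94 without KO replicate 2. Neutrophil markers moved with this list: 7 markers summed to 50.8 to 74.9 FPKM in WT and to 20.5 to 34.8 FPKM in KO hearts, 6 of 6 tested had negative differences and S100a8 fell (-1.24 ± 0.18, limma adjusted p = 0.047), while Ly6g was listed at 0 in 2 libraries. The marker list and the list of myeloid targets share Csf3r (-0.32 ± 0.25). The part of the neutrophil markers in the values of the myeloid targets was not tested. The 6 macrophage markers summed to 323 to 487 FPKM in the WT and 309 to 435 FPKM in the KO group, which overlapped.

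Around Ddit3, genes of the stress responses lay on both sides of 0. Atf4, the factor that induces Ddit3, stood at 49.0 to 54.4 FPKM in the WT and 63.1 to 76.9 FPKM in the KO group (0.46 ± 0.12, limma adjusted p = 0.285). The other 8 genes of the list of eIF2α kinases and stress sensors had negative differences, among them Xbp1 at -0.83 ± 0.34 and Atf6 at -0.29 ± 0.13 (limma adjusted p = 0.55 and 0.62). Xbp1 was at -0.46 without WT replicate 1, whose 29.4 FPKM was the highest value of the 6 hearts. Of 23 tested targets of ATF4 and CHOP 14 had positive and 9 negative differences (median 0.10). Ddit4, an inhibitor of the mTOR kinase that is also known to be induced by glucocorticoids, stood at 10.7 to 17.5 FPKM in the WT and 29.9 to 60.7 FPKM in the KO group (1.66 ± 0.27, limma adjusted p = 0.073), and was called once KO replicate 3 was left out (limma adjusted p = 0.032). Ppp1r15a, which encodes the phosphatase subunit GADD34, differed by 0.60 ± 0.12, and Chac1, a glutathione-degrading enzyme gene, by 0.94 ± 0.25 (limma adjusted p = 0.145 and 0.294). Of 15 tested endoplasmic reticulum chaperone genes 12 had negative differences (median -0.24). Hspa5, which encodes the chaperone BiP, stood at 49.1 to 73.8 FPKM in the WT and 29.8 to 45.6 FPKM in the KO group (-0.82 ± 0.22, limma adjusted p = 0.283), and Manf, a secreted stress protein gene, differed by -0.57 ± 0.15 (limma adjusted p = 0.271). Herpud1, a factor of protein degradation at the endoplasmic reticulum, stood at 39.3 ± 6.0 and 65.3 ± 5.4 FPKM (0.75 ± 0.16, limma adjusted p = 0.151), opposite in sign to Hspa5.

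**Figure D4:**
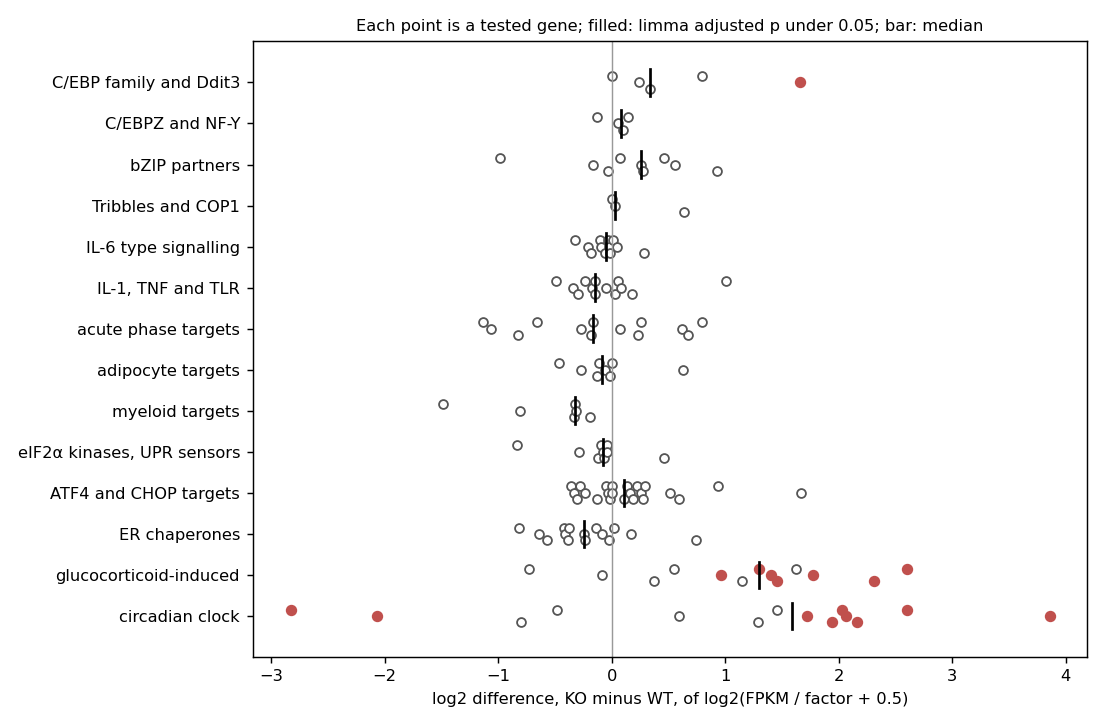
Log2 difference between KO and WT hearts for every tested gene of the 5 members, the 11 lists around them and the glucocorticoid and clock lists; filled points passed limma at an adjusted p under 0.05 and bars are medians. Cebpd, at 1.66, is the filled point of the top row, and the 11 lists below it hold 0 filled points. In the glucocorticoid list 7 of 13 genes are filled on the positive side. In the clock list of 14 genes 7 are filled on the positive and 2 on the negative side.

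**Figure D5:**
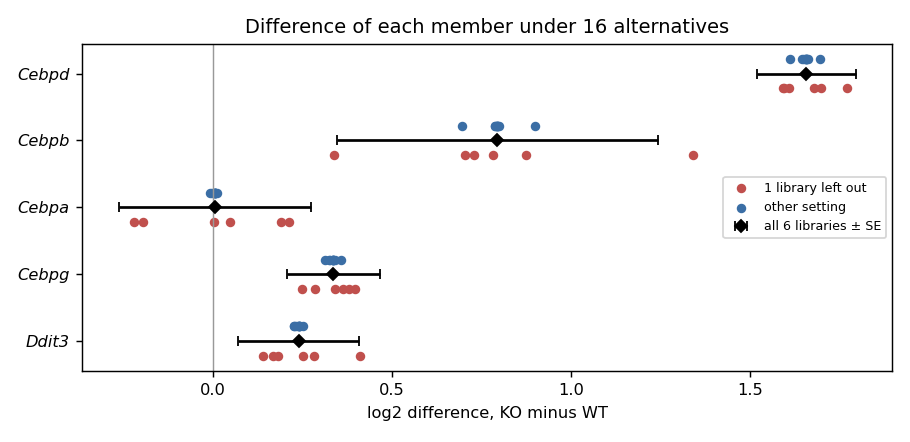
Log2 difference of each member with all 6 libraries (black, ± SE), with 1 library left out (red) and under the other settings of scaling, filter, pseudocount and model (blue). Cebpd stays between 1.59 and 1.77, Cebpb ranges from 0.34 to 1.34, and Cebpa lies on both sides of 0.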

How the data were processed

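The authors deposited 1 table of FPKM values per gene, although it is titled as counts: between 37.2% and 40.4% of each library's values carry decimals. Bowtie 0.12.2 and the builds mm8 and mm9 come from the submitters' processing notes, which state no role for them. No source used here gives the quantification tool, annotation, filters or use of strand. Of the 52550 rows, 52403 matched GENCODE M21 (GRCm38) by identifier, 93.3% with the same version, and coordinates are those of that annotation. Depth was taken from the most frequent FPKM times length in single-transcript genes and is approximate. Fragments of each member were reckoned from that depth and its longest GENCODE M21 transcript, so they are approximate too.

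The fit took genes that reached 0.5 FPKM in 3 libraries, on log2(FPKM / scaling factor + 0.5), and used limma 3.58.1 (R 4.3.3; genotype only, mean-variance trend, two-sided, Benjamini-Hochberg over 14656 genes), after tests on simulated data. Libraries were scaled by a trimmed mean of ratios, with factors of 0.949 to 1.07. Such differences understate changes of low genes. Members and lists were chosen with earlier results of these data known. Genes named are the members, the 3 of smallest p of each list (all of the 2 shortest), the 3 of highest r per member, Dbp, Arntl, Tsc22d3, Xist and Ddx3y. Others (Nr3c1, Zbtb16, Sgk1, Dusp1, Cebpe, Il6, Il11, Lif, Osm, markers, neighbours) were named after their values were seen. Marker lists are given as sums. An alignment of the members' coding sequences is not reported here.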

Additional observations from a re-analysis of the deposited data

How the results depend on the processing

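Alternatives were other scaling (median of ratios, upper quartile, none), an FPKM filter of 1 or no filter, pseudocounts of 0.1 and 1, robust and trend-free fits, the replicate block and leaving out each library. Cebpd was the 1 member called in all 16. Over these 16 the log2 difference ranged from 1.59 to 1.77 for Cebpd and from 0.34 to 1.34 for Cebpb. The range was 0.25 to 0.40 for Cebpg, 0.14 to 0.41 for Ddit3 and -0.22 to 0.21 for Cebpa. The robust, trend-free and replicate-block fits leave these differences unchanged by design. The count of genes called over all genes, 55, was 20 with no filter and 12 to 36 with 1 library left out. For the glucocorticoid list the count of 7 became 2 with no filter, 4 without the trend, 3 with the replicate block and 1 to 6 with 1 library left out. In the ATF4 and CHOP list 1 gene (Ddit4) was called with the replicate block, and 0 to 1 with 1 library left out. In the interleukin-1 list 1 gene (Nfkbia) was called with upper quartile scaling, the robust fit or the filter at 1, and 0 to 1 with 1 library left out.

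Deviations of same-numbered libraries from their genotype means had r of 0.0076, -0.036 and 0.18 for numbers 1 to 3. The highest r was 0.19, between WT replicate 1 and KO replicate 2. With 3 hearts per group, whose deviations sum to 0, these values cannot decide whether the numbers mark pairs. With the replicate block 42 genes were called, 24 higher and 18 lower against 40 and 15 without it.

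Differences near 0 changed sign. Trib2 was at 0.00031 with median of ratios, 0.00457 with no filter and -0.0475 to 0.0247 with 1 library left out. That range was -0.0377 to 0.0719 for Cop1, -0.0411 to 0.181 for Nfyb, -0.0407 to 0.272 for Nfyc and -0.283 to 0.107 for Lpl. Cebpg minus Cebpa was -0.14 in WT hearts and -0.0792 to 0.129 with 1 library left out, and Cebpa minus Cebpb was -0.0364 in KO hearts. The cause was not tested.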
